A study of Mus musculus with 2 samples.

Results

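The clustered histone genes are the genes that encode the bulk of the histone proteins packed with new DNA: the linker histone H1 and the core histones H2A, H2B, H3 and H4. Members were all genes in the deposited gene list whose symbols follow the current names of the clustered families (H1f1 to H1f5, and symbols starting H2ac, H2bc, H3c or H4c with a number), 65 of 55357 genes. They comprised 5 H1, 19 H2A, 17 H2B, 12 H3 and 12 H4 genes, of which 55 lie on chromosome 13 and 10 on chromosome 3 (mm10). The list includes the pseudogene H2ac5-ps and H2ac14, which GENCODE vM21 classes as an unprocessed pseudogene.

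The cells came from tumours of RENCA, a mouse kidney cancer line, grown in the kidneys of BALB/c mice. Droplet single-cell RNA-seq (10x Genomics) was done on 2 libraries, one carrying the label SMYD3 knockdown and the other the label WT for control tumours. The knockdown was made in the grafted line, not in the host cells. Cells were sorted for the leukocyte marker CD45 according to the series text, whereas the sample records give an epithelial cell type. The number of animals per library and the age of the mice are not given here, and neither library has a replicate, so no test between them was possible.

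In textbook terms, these genes are replication-dependent: their mRNAs accumulate while DNA is copied and are destroyed when copying ends. Unlike other mRNAs they normally end without a poly(A) tail, just after a short 3' stem-loop that is bound by the stem-loop binding protein Slbp. Many also carry polyadenylation signals further downstream, and polyadenylated forms are known from differentiated, non-dividing cells. Because droplet libraries usually capture RNA by its poly(A) tail, the molecules counted here need not be a fair sample of all histone mRNA. Replacement histones, such as H3.3 (H3f3a and H3f3b) and H2A.Z (H2az1), are encoded by ordinary polyadenylated mRNAs outside the clusters.

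To show what the members share and how their gene models differ, the 3' stem-loop was searched in the GENCODE vM21 transcripts. With up to 2 mismatches to the 16-base histone stem-loop consensus, 42 of 65 members (64.6%) had one in a model. An exact match was found in 37 members, and in 0.205% of all 21901 protein-coding genes (45 genes, of which 37 were members). One sequence of 16 bases was shared by 24 members of the H1, H2A, H2B and H3 families, and another was shared by 6 H4 genes. The following stem-loops are shown in capitals with up to 5 bases on either side, 5' to 3'. The models of the top 4 run on well past the stem-loop, and the models of the bottom 4 end close to it.
H1f2: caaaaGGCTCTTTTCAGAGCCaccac
H2ac6: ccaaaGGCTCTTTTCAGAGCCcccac
H2bc6: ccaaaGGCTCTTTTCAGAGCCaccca
H4c9: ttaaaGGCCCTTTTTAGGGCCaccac
H2ac24: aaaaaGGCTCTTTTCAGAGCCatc
H2bc14: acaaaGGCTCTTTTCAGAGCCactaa
H3c3: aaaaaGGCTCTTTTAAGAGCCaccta
H4c8: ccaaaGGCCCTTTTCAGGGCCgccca
The positions are chr13:23739507-23739532 (+) for H1f2, chr13:23683472-23683497 (-) for H2ac6, chr13:23585526-23585551 (-) for H2bc6, chr13:22040961-22040986 (-) for H4c9, chr13:21833026-21833049 (-) for H2ac24, chr13:21722501-21722526 (+) for H2bc14, chr13:23745042-23745067 (-) for H3c3 and chr13:23531453-23531478 (+) for H4c8, all in mm10 and all in the annotated 3' untranslated region of their gene. The stem-loops of H1f2, H2ac6, H2bc6, H2ac24 and H2bc14 were the same 16 bases, and their models differed in the length beyond it. That length was 840 bases in H1f2, 2010 in H2ac6, 1861 in H2bc6 and 330 in H4c9. It was 3 bases in H2ac24, 46 in H2bc14, 74 in H3c3 and 46 in H4c8. The polyadenylation hexamers AATAAA or ATTAAA occurred in that stretch 2 times in H1f2, 3 times in H2ac6, 4 times in H2bc6 and 2 times in H4c9. None was found in the stretches of H2ac24, H2bc14 and H3c3, and 1 in that of H4c8. The 3 bases of H2ac24 are too few to hold a hexamer, and the other short stretches leave little room for one. Sequence beyond the models was not searched. H1f5, H2ac10 and H2bc4 had no stem-loop in their models. A missing stem-loop says only that these letters are not in the model. Of the 23 members without one, 15, among them H1f5, have no model that runs past a coding end. The model of H2ac10 does, but its 399 bases are few more than the 393 of H2ac13, H2ac15 and H2ac22, which do not. It may thus be too short to hold a stem-loop.

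Promoters of the histone types differed in the motifs they hold. RefSeq promoters (GRCm38.p6, 250 bases before to 50 bases after the start) were given for 57 members, in 58 entries. The octamer ATTTGCAT, searched on both strands like all motifs here, was found in 6 of 17 H2A entries (35.3%) and 7 of 15 H2B entries (46.7%), against 1.74% of all 32851 promoters. It was found in 0 of the 5 H1, 10 H3 and 11 H4 entries. Many H2A and H2B genes are divergent neighbours that share these bases, so their entries are not independent. CCAAT was found in each of the H1, H2A, H2B and H3 entries but in 3 of 11 H4 entries (27.3%), against 37.4% of all promoters. AAACACA, the element known from H1 promoters, was found in 4 of 5 H1 entries (80.0%), against 7.18% of all promoters. TATAAA was found in 34 of 58 member entries (58.6%), against 13.6% of all promoters. None of these motifs contains another, though the ends of TATAAA and AAACACA can share bases. A match is a description of the sequence, not evidence of binding. The 250 bases upstream of 3 members are shown, with matches to the 4 motifs in capitals. H1f2 and H1f5 are linker histone genes, the first nearly level and the other far higher in dividing cells, and H2ac6 shares its upstream region with the divergent gene H2bc4.
H1f2: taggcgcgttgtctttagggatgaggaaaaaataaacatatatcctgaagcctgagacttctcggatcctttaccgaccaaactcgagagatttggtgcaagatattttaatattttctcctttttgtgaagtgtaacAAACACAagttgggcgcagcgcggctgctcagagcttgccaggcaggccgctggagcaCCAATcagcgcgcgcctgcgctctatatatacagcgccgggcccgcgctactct
H1f5: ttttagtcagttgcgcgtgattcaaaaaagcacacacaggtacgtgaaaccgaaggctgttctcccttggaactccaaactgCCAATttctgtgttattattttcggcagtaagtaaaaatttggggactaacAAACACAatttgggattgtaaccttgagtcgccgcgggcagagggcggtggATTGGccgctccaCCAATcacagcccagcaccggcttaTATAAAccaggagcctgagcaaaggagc
H2ac6: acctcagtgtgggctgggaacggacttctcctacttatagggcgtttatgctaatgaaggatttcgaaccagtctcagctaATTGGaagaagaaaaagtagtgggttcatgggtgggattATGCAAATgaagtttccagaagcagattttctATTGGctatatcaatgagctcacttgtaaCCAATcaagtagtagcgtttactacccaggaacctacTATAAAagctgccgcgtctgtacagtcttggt
These are chr13:23738557-23738806 (+), chr13:21780626-21780875 (-) and chr13:23683960-23684209 (-). Both H1 promoters held AAACACA and CCAAT, and of the 2 only that of H1f5 held TATAAA. The H2ac6 sequence held the octamer, TATAAA and CCAAT.

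After filtering, 8784 cells remained in the library labelled SMYD3 knockdown and 8079 in the library labelled WT. The whole libraries held 95803321 and 91523767 UMIs (unique molecules). Cells were classed by marker genes. Monocyte-macrophage-like cells were the largest class, with 6108 and 6162 cells (knockdown label first here and below), followed by neutrophil-like cells with 1788 and 1032. Ptprc, which encodes CD45, had a UMI in 88.9% and 89.5% of monocyte-macrophage-like cells but in 18.5% and 26.7% of the 54 and 105 tumour-epithelial-like cells. Smyd3 was not lower in the tumour-epithelial-like cells labelled knockdown. It had 34 UMIs (23.5 CPM, 95% interval 16.3 to 32.8) against 41 (15.9 CPM, 11.4 to 21.5), where CPM is UMIs per 1000000 UMIs of the same cells. The labels are therefore used as names of libraries throughout. 22 barcode sequences occur in both libraries.

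A total of 128014 UMIs of the clustered histone genes were counted in kept cells, and they came from few members. H1f2 (ENSMUSG00000036181, chr13:23738808-23740367) and H2bc4 (ENSMUSG00000018102, chr13:23684199-23692908) gave 44.8% of them, and the 10 most counted members gave 84.5%. By type, H1 gave 40.3%, H2B 24.5%, H2A 18.3%, H4 12.1% and H3 4.82%. UMIs count molecules, so these shares are not per length of gene. There were 15 members with at least 1000 UMIs, 20 with under 100, 4 with 1 to 4 and 4 with none (H3c14, H4c17, H2bc1 and H2ac1). Over all kept cells the summed level was 742 CPM (736 to 747) and 811 CPM (805 to 817). All intervals are exact at 95% and cover counting error only.

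The most counted members of each type were as follows. Among H1 genes, H1f2 stood at 189 and 203 CPM, H1f4 at 52.6 and 52.8 CPM, H1f5 at 39.8 and 43.1 CPM and H1f3 at 19.3 and 19.7 CPM. The 4 H1 levels differed by under 10% between libraries. Among H2A genes, H2ac24 stood at 33.0 and 70.9 CPM, H2ac8 at 34.6 and 48.2 CPM, H2ac6 at 25.7 and 19.9 CPM and H2ac20 at 8.52 and 10.2 CPM. The 2 highest H2A genes were lower in the library labelled knockdown, whereas H2ac6 was higher there. Among H2B genes, H2bc4 stood at 154 and 150 CPM, H2bc6 at 11.9 and 11.2 CPM, H2bc18 at 5.38 and 4.98 CPM and H2bc8 at 4.84 and 4.23 CPM. A single gene thus carried most H2B counts. Among H3 genes, H3c4 stood at 15.5 and 13.6 CPM, H3c3 at 10.2 and 10.3 CPM, H3c6 at 3.06 and 3.52 CPM and H3c1 at 3.30 and 3.18 CPM. Among H4 genes, H4c4 stood at 37.9 and 41.6 CPM, H4c9 at 39.4 and 37.6 CPM, H4c8 at 4.45 and 9.13 CPM and H4c14 at 3.88 and 3.67 CPM. H4c8 was the only one of these 8 H3 and H4 genes with levels more than 1.5-fold apart.

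In dividing monocyte-macrophage-like cells most clustered histone genes were higher, but the 2 with the most counts were not. Cells with at least 4 UMIs of Mki67 plus Top2a, genes expressed in dividing cells, were compared with cells holding 0. There were 780 and 772 cycling cells and 4087 and 4176 cells at 0. The summed level was 1406 CPM (1388 to 1425) in cycling cells against 606 CPM (599 to 613) at 0 in the library labelled knockdown, a ratio of 2.32 (2.28 to 2.36). In the library labelled WT it was 1670 CPM (1649 to 1691) against 626 CPM (618 to 634), a ratio of 2.67 (2.62 to 2.71). With H1f2 and H2bc4 left out, a choice made after seeing the data, the ratios were 4.70 and 5.55. The 4 sums of UMIs (2 libraries by 2 states) were tested with edgeR's quasi-likelihood test with library as a term. This test has 1 residual degree of freedom and treats the libraries as its replicates. It also borrows variance estimates from other genes. Its p-values thus rest on agreement between these 2 libraries and on that borrowed variance.

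Of the 65 members, 53 had at least 20 UMIs over the 4 sums and were tested. At an adjusted p under 0.05 (Benjamini-Hochberg over 16042 genes), 45 rose and 2 fell, against 19.8% of all genes tested that rose and 15.4% that fell. The median log2 fold change was 2.37 over the tested members and -0.01 over all genes tested. Members with few UMIs at 0 can pass the count minimum through cycling cells alone, as H2ac10, H3c2 and H2bc15 did. The minimum thus favours rises among members with few UMIs, also in the counts per type below. The counts therefore do not stand for the other 12 members. Those 12 had at most 8 UMIs in any 1 sum and at most 18 over the 4. DESeq2 on the same sums gave 37 rises and 1 fall. Median depth per cell also differed, at 20047 and 18784 UMIs in cycling cells against 9894 and 9633 at 0. With each cell thinned to 5000 UMIs, 33 of 46 tested members rose and 1 fell. Cells with fewer UMIs were left out, so 766 and 756 cycling cells and 3348 and 3458 cells at 0 remained. The gate still used the full counts, so the part of depth in the gating itself was not tested.

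**Figure D1:**
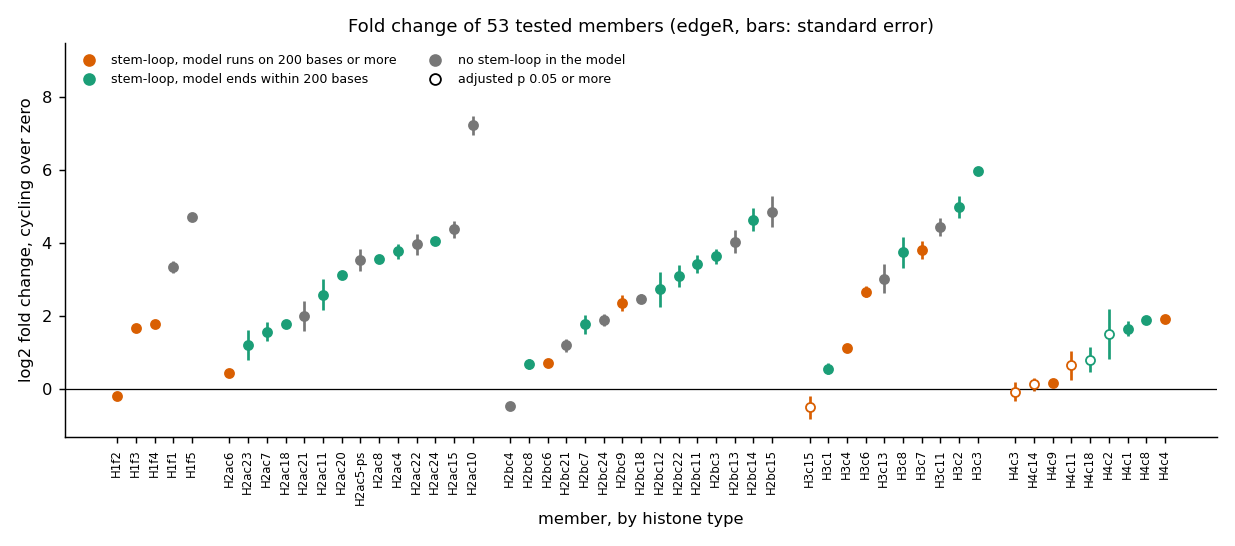
Log2 fold change (y axis) of the 53 tested members in cycling over Mki67+Top2a-negative monocyte-macrophage-like cells, ordered within each histone type (x axis). Points are edgeR estimates, bars are standard errors, colours mark the gene model and open points did not pass the adjusted p of 0.05. H2ac10 lies highest at 7.24, and H3c15, H2bc4 and H1f2 lie lowest.

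H1 genes, which bind the linker DNA between nucleosomes, divided into 2 patterns. H1f2 was at 180 and 194 CPM in cycling cells and at 199 and 215 CPM in cells at 0. Its fall of 0.17 on the log2 scale (SE 0.04) was small and passed the test (edgeR adjusted p = 0.0134), but did not pass with DESeq2 (adjusted p = 0.121) or with edgeR on thinned cells (adjusted p = 0.116). H1f5 (ENSMUSG00000058773, chr13:21779883-21780625) was at 173 and 187 CPM in cycling cells against 6.58 and 6.87 CPM at 0, a log2 fold change of 4.71 (SE 0.06, edgeR adjusted p = 8.43e-11). Both libraries thus showed the same split between a level H1 gene and one that was nearly absent outside dividing cells. H1f1, H1f4 and H1f3 rose by 3.36, 1.80 and 1.67 on the log2 scale.

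All 14 tested H2A genes rose. H2ac24 (ENSMUSG00000094777, chr13:21833026-21833507) was at 134 and 290 CPM in cycling cells against 8.37 and 16.4 CPM at 0, a log2 fold change of 4.06 (SE 0.06). H2ac8 was at 130 and 188 CPM against 11.5 and 14.8 CPM, and its log2 fold change was 3.56 (SE 0.06). H2ac10 had 289 and 190 UMIs in cycling cells against 7 and 1 at 0, the highest log2 fold change of the tested members (7.24, SE 0.26, edgeR adjusted p = 4.54e-08). H2ac6 changed least, at 41.0 and 25.9 CPM against 26.5 and 21.0 CPM (log2 fold change 0.45, SE 0.08), and its rise did not pass edgeR's test on thinned cells (adjusted p = 0.0588). Summed over the type, H2A mRNA was 7.01 and 9.22 times higher in cycling cells.

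H2B genes rose in 14 of 15 tests, yet their sum, most of which was H2bc4, hardly moved. H2bc4 was at 126 CPM in cycling cells of both libraries and at 173 and 168 CPM at 0, a fall of 0.46 on the log2 scale (SE 0.05, edgeR adjusted p = 5.97e-05). The fall of H2bc4 also passed with DESeq2 and on thinned cells. The other tested H2B genes had log2 fold changes from 0.70 (H2bc8) to 4.87 (H2bc15). H2bc15 was at only 0.0477 and 0.0954 CPM in cells at 0. H2bc8 did not pass with DESeq2 (adjusted p = 0.113) or with edgeR on thinned cells (adjusted p = 0.0577). H2bc6 (0.72) did not pass with edgeR on thinned cells (adjusted p = 0.221). The summed H2B level was 1.08 (1.04 to 1.13) and 1.09 (1.04 to 1.13) times that in cells at 0.

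H3 genes rose in 9 of 10 tests. H3c3 (ENSMUSG00000069310, chr13:23744973-23745602) was at 46.4 and 47.7 CPM in cycling cells against 0.739 and 0.716 CPM at 0, a log2 fold change of 5.98 (SE 0.11). H3c2 had the next highest value of the type, 5.00 (SE 0.31), on 40 and 95 UMIs in cycling cells against 3 and 8. H3c4, the H3 gene with the most counts, rose by 1.14 (SE 0.10). H3c15 did not pass the test (log2 fold change -0.49, SE 0.32, edgeR adjusted p = 0.274). The summed H3 level was 5.52 and 5.59 times higher.

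H4 genes rose in 4 of 9 tests, and the summed H4 level was 2.12 and 2.45 times higher. H4c4 was at 93.8 and 109 CPM in cycling cells against 26.3 CPM at 0 in both libraries, a log2 fold change of 1.92 (SE 0.07). H4c9 was nearly level, at 44.6 and 42.0 CPM against 38.0 and 37.0 CPM (log2 fold change 0.18, SE 0.06, edgeR adjusted p = 0.0344), and this call was lost with DESeq2 (adjusted p = 0.431) and with edgeR on thinned cells (adjusted p = 0.479), over all kept cells (adjusted p = 0.243) and without a count minimum (adjusted p = 0.163). H4c8 and H4c1 rose by 1.90 and 1.66. H4c3, H4c14, H4c11, H4c18 and H4c2 did not pass the test, with log2 fold changes from -0.07 to 1.51.

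The fold changes differed with the gene models shown above. This grouping was chosen after the values were seen, so it is described and not tested. The 16 members whose models run at least 200 bases past the stem-loop held 52.7% of member UMIs, and 10 of these 16 have a polyadenylation hexamer in that stretch. Of the 15 tested, 10 rose and 1 fell, with a median log2 fold change of 0.72 (range -0.49 to 3.82). Over all genes tested, 19.8% rose and 15.4% fell. The 26 members whose models end under 200 bases past the stem-loop held 19.1% of UMIs, and 3 have such a hexamer. Of the 23 tested, 21 rose and 0 fell, with a median of 2.74 (range 0.56 to 5.98). Groups were set by the length past the stem-loop, and a shorter stretch has less room for a hexamer. The hexamer counts of 10 and 3 are therefore not comparable. The 23 members with no stem-loop in a model held 28.3% of UMIs. Of the 15 tested, 14 rose and 1 fell, with a median of 3.53 (range -0.46 for H2bc4 to 7.24 for H2ac10).

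Summed over each group, the members that run on were at 604 and 613 CPM in cycling cells against 373 and 379 CPM at 0. The ratio was 1.62 in both libraries. H1f2 alone made up 180 and 194 CPM of this in cycling cells and 199 and 215 CPM at 0. The members that end near the stem-loop were at 415 and 662 CPM against 43.4 and 61.2 CPM, ratios of 9.56 (9.08 to 10.1) and 10.8 (10.4 to 11.3). Members with no stem-loop in a model were at 387 and 395 CPM against 190 and 186 CPM, ratios of 2.04 and 2.12. H2bc4 alone made up 173 and 168 CPM of their level at 0. In cells at 0, most histone UMIs thus came from members whose models run on, with H1f2 the largest part. The annotation used for counting is unknown here, and its part in these levels was not tested. In GENCODE vM21, 6 members overlap another gene on the same strand, among them H2bc6 and H1f4 with each other, so the split of their reads is uncertain.

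Histone level did not increase evenly with Mki67 and Top2a. Summed over all members it was 606 and 626 CPM in cells at 0, 521 and 548 CPM at 1 UMI and 505 and 571 CPM at 2 to 3 UMIs. It was 518 and 693 CPM at 4 to 7 UMIs, 918 and 962 CPM at 8 to 15 and 1915 and 2262 CPM at 16 or more. Cells with 1 to 7 UMIs thus lay below the level of cells at 0 in the library labelled knockdown, and the rise was concentrated in the 388 and 391 cells with 16 or more. H1f5 went from 23.6 and 25.8 CPM at 4 to 7 UMIs to 253 and 287 CPM at 16 or more. Median depth went from 9894 and 9633 UMIs per cell in the lowest bin to 23050 and 22394 in the highest, and its part in the bins was not tested.

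**Figure D2:**
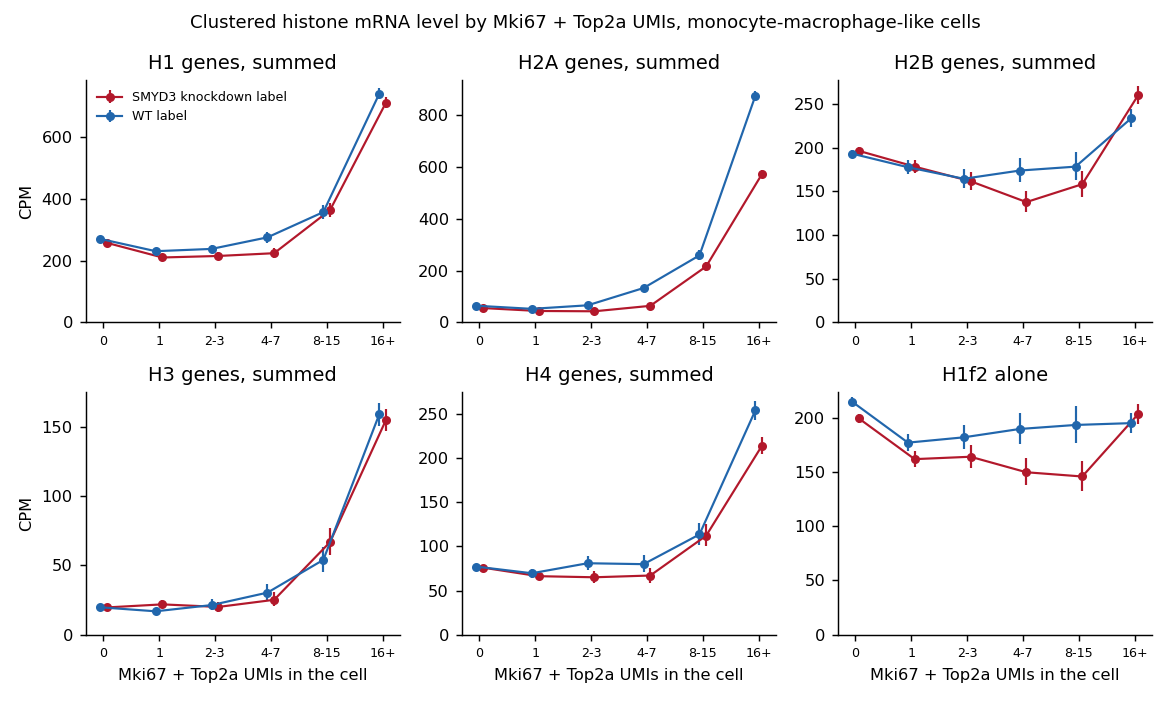
CPM (y axis) of each histone type and of H1f2 alone in monocyte-macrophage-like cells binned by Mki67 plus Top2a UMIs (x axis), 1 line per library, with 95% counting intervals as bars. H1, H2A, H3 and H4 rise steeply from 8 UMIs on, whereas H2B stays between 138 and 260 CPM and H1f2 alone between 146 and 215 CPM.

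Separate lists of S-phase genes and of mitosis genes were used to compare cells with one set of cycle genes but not the other. The S list holds 16 genes of replication start and its control (among them Ccne1, Ccne2, Cdc6 and Mcm10), and the mitosis list 16 genes (among them Ccnb1, Plk1 and Cenpe). Cells with at least 4 UMIs of one list and at most 1 of the other were called S-gated (198 and 163 cells) or mitosis-gated (417 and 435 cells). Most of them did not meet the gate for cycling cells used above: 10.1% and 14.7% of S-gated and 23.5% and 32.9% of mitosis-gated cells held at least 4 UMIs of Mki67 plus Top2a, and 39.4% and 39.9%, and 33.1% and 30.8%, held 0. The summed histone level was 386 CPM (365 to 408) and 364 CPM (342 to 388) in S-gated cells. It was 836 CPM (812 to 861) and 824 CPM (800 to 848) in mitosis-gated cells, ratios of 0.462 and 0.442. Over both libraries the ratio was 0.453, and 0.401 (0.356 to 0.451) among gated cells with at least 4 UMIs of Mki67 plus Top2a, a restriction added after seeing the data. Both libraries thus had less clustered histone mRNA in S-gated than in mitosis-gated cells. It was also less than the 606 and 626 CPM of cells at 0 of Mki67 and Top2a. The S gate leaves out cells that also hold more than 1 UMI of the mitosis list, so its level is not that of S phase as a whole. Whether S-gated cells were copying DNA was not measured.

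Of 27 members tested between these states, 0 were higher and 13 lower in S-gated cells, against 9.54% and 8.42% of the 11924 genes tested. At an unadjusted p under 0.05 edgeR also gave 0 higher, and DESeq2 gave 0 higher and 5 lower. The calls lost with DESeq2 were those of H1f4, H2ac24, H2ac8, H2bc8, H3c3, H3c4, H4c4 and H4c8. H1f2 was at 111 and 106 CPM in S-gated and at 257 and 259 CPM in mitosis-gated cells (log2 fold change -1.27, SE 0.07, edgeR adjusted p = 6.70e-18). H2bc4 was at 101 and 67.0 CPM against 231 and 182 CPM (log2 fold change -1.31, SE 0.08). H4c9 followed the same order, at 25.4 and 16.5 CPM against 60.7 and 60.6 CPM (log2 fold change -1.53, SE 0.14). H1f5, in contrast, was low in both states, at 11.2 and 10.9 CPM against 14.7 and 15.1 CPM, and did not pass the test (edgeR adjusted p = 0.158).

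Cells positive for both lists held the highest levels of the states compared. This was noticed in the data and is described without a test. Cells with at least 4 UMIs of each list (544 and 457 cells) had a summed level of 1546 CPM (1525 to 1568) and 2046 CPM (2019 to 2074). There H1f5 reached 208 and 256 CPM, H2ac24 159 and 392 CPM, H2ac8 153 and 252 CPM and H3c3 55.2 and 62.9 CPM. H3c3 was at 4.89 and 5.17 CPM in mitosis-gated cells and had 1 and 4 UMIs in S-gated cells, against 687 and 648 UMIs in cells with both lists. H1f2 (173 and 191 CPM) and H2bc4 (112 CPM in both libraries) were lower there than in mitosis-gated cells. Median depth was 21760 and 22028 UMIs in cells with both lists, 16534 and 15676 in S-gated and 12454 and 12631 in mitosis-gated cells. The part of depth in this pattern was not tested.

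**Figure D3:**
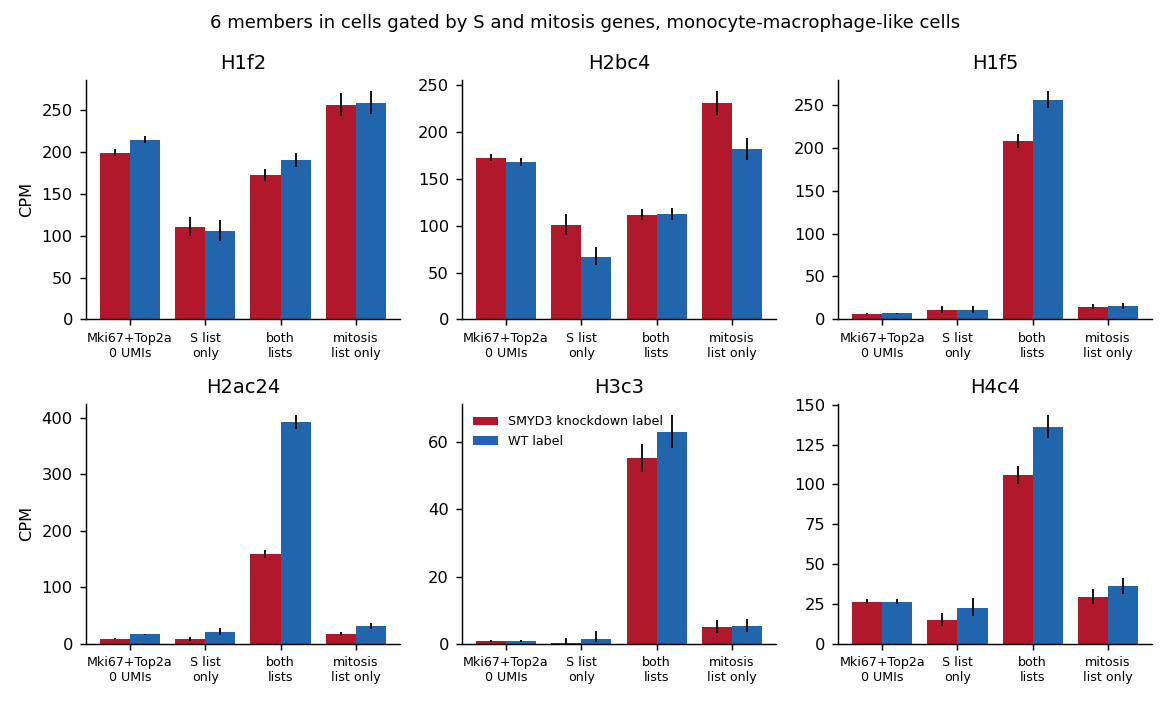
CPM (y axis) of 6 members in monocyte-macrophage-like cells in 4 states (x axis: 0 UMIs of Mki67+Top2a, S list only, both lists, mitosis list only), 1 bar per library with 95% counting intervals. H1f5, H2ac24, H3c3 and H4c4 are highest in cells with both lists, whereas H1f2 and H2bc4 are highest in mitosis-gated cells.

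Genes that process histone mRNA and supply histone proteins rose with the members. Of 18 such genes, 16 rose and 1 fell in cycling cells, against the 19.8% and 15.4% given above. Slbp, which binds the stem-loop, was at 157 and 163 CPM against 71.0 and 75.0 CPM (log2 fold change 1.10, SE 0.05). The histone chaperones Asf1b and Nasp rose by 4.58 and 1.47, and Chaf1a, a subunit of the chromatin assembly factor CAF-1, rose by 3.35. Npat and Casp8ap2, factors of the histone locus body where these genes are transcribed, rose by 0.86 and 1.00. Lsm10, a protein of the U7 particle that helps cut the 3' end, fell by 0.19, and Sympk, a scaffold of the cleavage complex, did not pass the test. Between S-gated and mitosis-gated cells the list went the other way from the histone genes. Of 17 tested, 10 were higher in S-gated cells and 0 lower, against 9.54% and 8.42% of all genes tested. Slbp was higher by 1.51 (SE 0.09). Chaf1b and E2f1, both among the 10, are themselves genes of the S list, so the gate fixed their direction. This list was not counted with DESeq2.

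Of 14 replacement histone genes, 12 were tested in cycling cells, 9 rose and 1 fell, against 19.8% and 15.4% of all genes tested (DESeq2 gave 6 and 1). H2az1 was at 2461 and 2381 CPM against 798 and 753 CPM (log2 fold change 1.62, SE 0.04). H2ax, the variant marked at DNA breaks, rose by 2.89 and H2az2 by 2.13. H3f3b rose by 0.14, H3f3a did not pass the test (log2 fold change 0.08, edgeR adjusted p = 0.156), and H2aj fell by 0.34. In S-gated against mitosis-gated cells, 9 of 11 tested replacement genes were lower, against 8.42% of all genes tested, and DESeq2 gave 4.

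In dendritic-like, T-cell-like and tumour-epithelial-like cells, the few cycling cells also held higher summed levels. In dendritic-like cells the summed level was 2291 CPM (2130 to 2461) and 1953 CPM (1818 to 2095) in 16 and 22 cycling cells, against 658 and 513 CPM in 99 and 126 cells at 0. H1f5 was at 312 and 206 CPM against 4.95 and 3.80 CPM in these cells, and H1f2 at 334 and 196 CPM against 290 and 204 CPM. T-cell-like cells had 3 and 10 cycling cells, with 3547 CPM (2817 to 4408) and 2863 CPM (2576 to 3174) against 553 and 648 CPM at 0. In tumour-epithelial-like cells the difference was smaller, 475 CPM (412 to 544) and 658 CPM (603 to 716) in 11 and 21 cycling cells against 340 and 356 CPM at 0. H1f5 there had 0 UMIs in cycling cells of the library labelled knockdown and 22 UMIs (27.2 CPM) in those labelled WT, all of them in 2 of the 21 cells. These classes hold few cells, and none of their levels was tested.

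UMIs of the clustered histone genes were also counted in neutrophil-like cells, mature cells that in textbook terms have left the cell cycle. At their depth, a median of 1394 and 1325 UMIs per cell against 11680 and 11252 in monocyte-macrophage-like cells, the gate of 4 UMIs of Mki67 plus Top2a could seldom be reached. That 0 of 1788 and 0 of 1032 cells passed it is therefore no measure of division, and 29 and 19 cells held 1 to 3 UMIs of the pair. The summed level was 490 CPM (463 to 517) and 547 CPM (510 to 586), against 754 and 825 CPM in monocyte-macrophage-like cells. The latter include the cycling cells, and those at 0 of Mki67 and Top2a stood nearer, at 606 and 626 CPM. H1f2 was at 158 CPM in both libraries, H2bc4 at 95.6 and 109 CPM and H4c9 at 56.4 and 58.7 CPM. H2bc6 was at 59.4 and 54.7 CPM in neutrophil-like cells against 10.2 and 10.1 CPM in monocyte-macrophage-like cells. H2bc6 and H4c9 were the only members whose level in neutrophil-like cells lay above that of monocyte-macrophage-like cells, with intervals apart, in both libraries. H3c3 and H1f5 had few UMIs: H3c3 had 9 and 1 UMIs and H1f5 15 and 7 UMIs in all neutrophil-like cells. There 3 UMIs are 1.12 and 2.025 CPM. The H3c3 counts thus do not place it below the 0.739 and 0.716 CPM of monocyte-macrophage-like cells at 0. The 12 monocyte-macrophage markers summed to a median of 16.7 UMIs per 10000 in neutrophil-like cells, against 90.6 in monocyte-macrophage-like cells. The part of depth and of RNA from other cells in these levels was not tested.

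**Figure D4:**
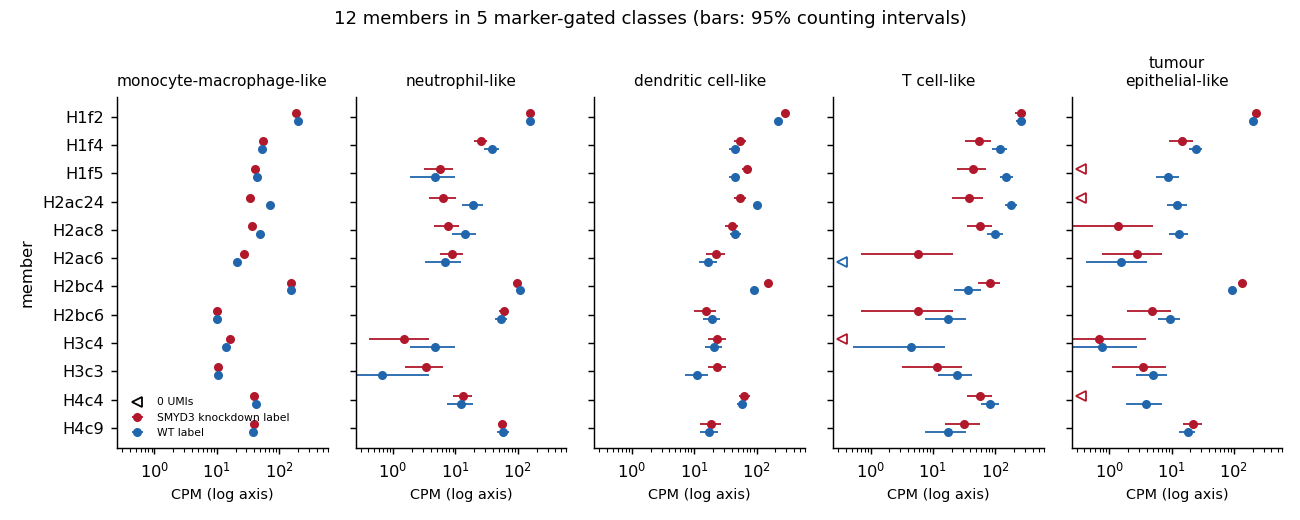
CPM (x axis, log scale) of 12 members (y axis) in 5 marker-gated classes, 1 point per library with 95% counting intervals; open triangles mark 0 UMIs. H1f2 is high in all 5 classes, and H2bc4 in all but T-cell-like cells. There H2bc4 was at 46.1 and 43.2 CPM in cells at 0 of Mki67 and Top2a. H2bc6 is highest in neutrophil-like cells, and H2ac24 is lower in the library labelled knockdown in each class.

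Between libraries, monocyte-macrophage-like cells differed mainly in H2A. The summed level was 754 CPM (747 to 760) in the library labelled knockdown and 825 CPM (818 to 832) in that labelled WT, a ratio of 0.913 (0.903 to 0.924). H2A was at 123 and 172 CPM, a ratio of 0.716 (0.697 to 0.736). The ratios of H1 (0.946), H4 (0.922), H3 (1.02) and H2B (1.01) were closer to 1, and the intervals of H3 and H2B included 1. The share of cycling cells was 12.8% (11.9 to 13.6) and 12.5% (11.7 to 13.4), but it was 14.2% against 12.3% in the subclass led by C1q genes (complement, macrophages) and 10.3% against 13.4% in that led by Ly6c2 (monocytes). Doublet removal took 16.5% and 10.9% of the cells with at least 4 UMIs of Mki67 plus Top2a, and without it the ratio of all members was 0.934. Without H2ac24, left out after seeing the data, it was 0.956. The direction was not shared by all cells. Among cells at 0 of Mki67 and Top2a, the summed level was 544 against 627 CPM in C1q-led cells (ratio 0.868, 0.849 to 0.887) but 707 against 618 CPM in Ly6c2-led cells (1.14, 1.11 to 1.18). In these Ly6c2-led cells H2A was nearly level (68.9 and 70.6 CPM), and H2B was at 197 against 151 CPM. In these C1q-led cells H1 was at 216 against 257 CPM, H2A at 47.2 against 61.2 CPM and H2B at 196 against 213 CPM. H2B thus differed in opposite directions, which its ratio over the class does not show. In dendritic-like cells the summed level of all members was 996 against 821 CPM (ratio 1.21, 1.13 to 1.30).

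Of 51 members with at least 30 UMIs in the higher library, 6 were at least 1.5-fold lower and 3 at least 1.5-fold higher in the library labelled knockdown. The corresponding shares of all 14401 genes were 5.31% lower and 1.78% higher. H2ac24 was at 34.6 against 72.5 CPM, a ratio of 0.477 (0.455 to 0.500) on 2627 and 5338 UMIs. H4c8 was at 4.50 against 8.90 CPM (ratio 0.506, 0.443 to 0.578) and H2ac18 at 3.84 against 7.30 CPM (0.527, 0.455 to 0.609). H4c1 (0.579), H3c2 (0.425) and H3c13 (0.380) rested on 116, 46 and 20 UMIs in the library labelled knockdown. H3c8 was higher, with 42 against 21 UMIs (ratio 1.94, 1.12 to 3.45). The intervals of H2ac11 (1.66) and H2ac23 (1.52), with 36 UMIs each in the library labelled knockdown, included 1. H2ac18 has a near-identical copy, H2ac19, that took 1 UMI in the cells of the cycling comparison, so the split between the 2 is uncertain.

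H2ac24 was lower in the library labelled knockdown in dividing and in other cells. Its ratio was 0.510 (0.448 to 0.581) in cells at 0 of Mki67 and Top2a and 0.463 (0.439 to 0.488) in cycling cells. In C1q-led and Ly6c2-led cells it was 0.479 and 0.469. It was 0.548 (0.421 to 0.707) in dendritic-like, 0.207 (0.106 to 0.374) in T-cell-like and 0.336 (0.172 to 0.635) in neutrophil-like cells. Tumour-epithelial-like cells had 0 UMIs of H2ac24 in the library labelled knockdown and 32 (12.4 CPM) in that labelled WT. In the former, 3 UMIs would have been 2.07 CPM. Of the 32 UMIs, 27 lay in 3 cycling cells, so this contrast rests on few cells. In T-cell-like cells the cycling shares also differed, with 3 of 91 and 10 of 122 cells. H2ac18 (0.495 at 0, 0.533 cycling) and H4c8 (0.564 at 0, 0.474 cycling) were likewise lower in both states. Within cells at 0 the number of members at least 1.5-fold lower was 4 and higher 1, of 31 with enough UMIs, against 4.84% and 1.67% of genes. Within cycling cells 7 members were lower and 2 higher, of 44, against 4.21% and 2.0% of genes.

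H2ac6 and H2bc4, the divergent neighbours whose shared upstream sequence is shown above, were higher in the library labelled knockdown in Ly6c2-led cells. H2ac6 was at 30.4 against 15.7 CPM there (ratio 1.94, 1.71 to 2.21) and at 25.7 against 23.9 CPM in C1q-led cells (1.08, 0.994 to 1.16). H2bc4 was at 157 against 123 CPM in Ly6c2-led cells (ratio 1.28, 1.22 to 1.34) and at 158 against 170 CPM in C1q-led cells (0.928, 0.900 to 0.957). In dendritic-like cells H2bc4 was at 152 against 92.2 CPM (ratio 1.65, 1.36 to 2.01). H1f2 was nearly level in Ly6c2-led cells (ratio 1.01, 0.975 to 1.06). In neutrophil-like cells, whose levels are given above, H2bc4 was not higher in the library labelled knockdown. The subclasses were compared after seeing the data. Whether they differ in these ratios was not tested, since each ratio rests on 1 library per label. The part of the shared upstream sequence was not tested either.

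**Figure D5:**
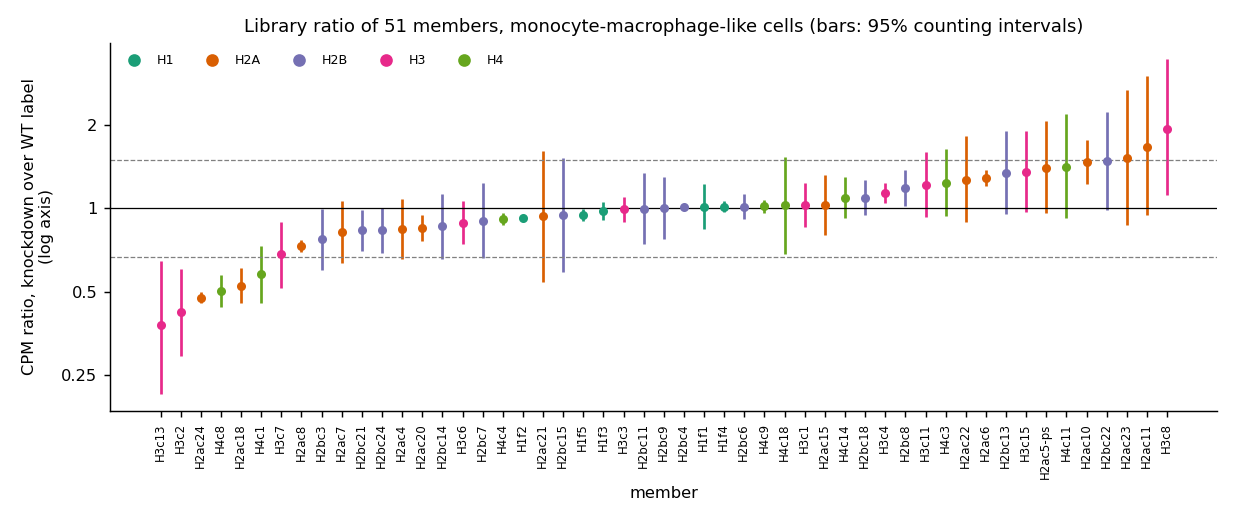
CPM ratio (y axis, log scale) of the library labelled knockdown over that labelled WT for the 51 members with at least 30 UMIs in the higher library (x axis, in order of the ratio), in monocyte-macrophage-like cells. Bars are 95% counting intervals, dashed lines mark 1.5-fold, and H2ac24 (0.477), H4c8 (0.506) and H2ac18 (0.527) lie low with narrow bars.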

How the data were processed

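The 3' ends came from GENCODE vM21 and promoters from RefSeq (GRCm38.p6). The authors' deposited matrix holds whole UMI counts per gene and cell. Per the submitters' processing notes it was made with Cell Ranger 7.1.0 and mm10. The counting annotation and the captured transcript end are not given in the sources used here. Both members and lists were chosen with earlier results of these data known.

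Cells were kept with at least 200 genes, 500 UMIs and at most 20% mitochondrial UMIs. Doublets were scored with Scrublet in scanpy 1.11.5, whose own threshold marked 0 cells, so cells were ranked by score and the top 0.8% per 1000 cells taken out (723 and 603 cells). Classes were gated on marker genes, needing 3 detected markers. Of kept cells, 438 lay within a factor of 2 of the neutrophil gate.

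UMIs were summed per library and state. Genes with at least 20 UMIs over the sums were tested with edgeR 4.0.16 (TMM, quasi-likelihood, library and state as terms). The test was tested on simulated data. Alternatives used RLE factors, DESeq2 1.42.0, no count minimum, other gates, no doublet removal and cells thinned to 5000 UMIs. Between libraries no test was made. Intervals are Poisson for CPM, Clopper-Pearson for shares and conditional binomial for ratios. Named members were the 4 with the most UMIs per type, those 1.5-fold apart between libraries, and the 3 highest and 3 lowest fold changes in cycling cells.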

Additional observations from a re-analysis of the deposited data

How the results depend on the processing

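No paired analysis was possible because there is 1 library per label and the replicate numbers only name the libraries; this concerns the labels, since the tests of cell states already compared states within each library. The count of members that rose in cycling cells stayed within 1.5 times the reported 45 in each of the 7 alternatives run, from 33 (thinned cells) to 46 (no doublet removal). The count of members higher in S-gated cells was 0 in all 3 alternatives, while the count of lower members was 13, 14 and 5 (RLE factors, no count minimum, DESeq2). Over all genes, 3176 rose and 2464 fell in cycling cells, against 1694 and 1057 with DESeq2 and 1751 and 1422 in thinned cells. Between S-gated and mitosis-gated cells 1138 were higher and 1004 lower, against 166 and 154 with DESeq2.

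The ratio of cycling cells to cells at 0 was 2.49 over both libraries and 2.32 to 2.67 with each library alone. It was 2.41 without the cell filter, 2.40 without doublet removal, 2.33 in thinned cells, 2.30 as a mean of per-cell CPM, 2.95 with a gate of 8 UMIs, 3.30 without H1f2 and 5.12 without H1f2 and H2bc4. The ratio between libraries, 0.913 in the report, was 0.935 without the cell filter, 0.934 without doublet removal, 0.940 in thinned cells and 0.945 as a mean of per-cell CPM. It was 0.842 within cycling cells, 0.968 within cells at 0 and 0.956 without H2ac24. Within C1q-led cells it was 0.876 (0.868 at 0 of Mki67 and Top2a) and within Ly6c2-led cells 0.985, and it reversed to 1.14 in Ly6c2-led cells at 0; the cause was not tested. The S-gated to mitosis-gated ratio of 0.453 was 0.407 with gates of 6 UMIs and 0.421 in thinned cells, 0.426 among gated cells with at least 1 UMI of Mki67 plus Top2a and 0.401 with at least 4. The subclass and Mki67 plus Top2a alternatives, like those leaving out members by name, were chosen after seeing the data.

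The count of members at least 1.5-fold apart between libraries, 9 in the report, was 3 at 2-fold, 5 with at least 100 UMIs and 5 within cells at 0. The first 2 follow from stricter limits; for the last the cause was not tested. No other ratio changed direction in the alternatives run. In the largest class 12 members had too few UMIs to test, and the rarer classes hold few cells.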
